A study of Mus musculus with 10 samples.

Results

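The 10 genes described here are Myc and its relative Mycn, their partner Max, the MAX-binding antagonists Mxi1, Mxd4 and Mnt, the MYC-induced transcription factor Tfap4, and the D-type cyclins Ccnd1, Ccnd2 and Ccnd3. They were chosen by name, for their place in the MYC network and at the start of the cell cycle, and all 10 were found among the 22366 gene symbols quantified. The libraries were RNA-seq of NP-binding germinal center B cells (GL7+IgD-) isolated 2 weeks after mice received NP-OVA in alhydrogel, with 1 library per mouse. ZBTB38 WT mice were Zbtb38fl/fl without Cre (n = 2), ZBTB38 HET mice were Zbtb38fl/+ x Vav-Cre (n = 2) and ZBTB38 KO mice were Zbtb38fl/fl x Vav-Cre (n = 6), so that every mouse carried at least 1 floxed allele and only ZBTB38 WT lacked Cre. The labels give the strain of all as C57Bl6/N, and their age was not given in the sources used here. The labels call the samples untreated, and the immunisation is taken from the study's methods. The floxed allele came from a single founder made by Cas9 editing of C57Bl6/J zygotes, whose descendants were crossed back to C57Bl6/N, and Vav-Cre acts mainly in the hematopoietic lineage as a whole, so the deletion was not limited to B cells.

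MYC is a transcription factor that pairs with MAX to bind E-box DNA (CACGTG) and raise the transcription of genes for growth and ribosome production. MXI1, MXD4 and MNT pair with the same MAX and repress through the same sites, so the relative amounts of these proteins set the output of the network. In the germinal center, MYC is induced in a small share of light zone B cells that have received T cell help, TFAP4 extends the division programme that MYC starts, and D-type cyclins activate CDK4 and CDK6 to inactivate the retinoblastoma proteins, with cyclin D3 the form that dividing germinal center B cells depend on.

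None of the 9 genes that passed the filter on low counts was called between any 2 genotypes in the main fits, at an edgeR adjusted p under 0.1. Of all genes tested, 0.00704% passed this threshold for KO over WT and 0.00749% for KO over the 4 controls. For KO over HET and for HET over WT the share was 0.00697% each. Ccnd3 was by far the most abundant. For each of the 9 genes the ZBTB38 KO libraries overlapped with those of both other genotypes, except for Ccnd2 against ZBTB38 HET. Of all genes tested, 6.59% did not overlap between ZBTB38 KO and WT, and 13.9% between ZBTB38 KO and HET. Ccnd2 varied widely between libraries. Both ZBTB38 HET libraries were below each of the other 8, as was the case for 4.55% of all genes, and 1 ZBTB38 KO library stood far above the rest. DESeq2 called Ccnd2 in KO over HET, where it called 2.91% of all genes, and in HET over WT (0.956%). In HET over WT edgeR also called Ccnd2 under some of the other settings tried. Mycn had next to no reads.

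The libraries held between 26612431 and 41059082 estimated counts. Levels are given as CPM, the counts of a gene relative to the library total after TMM scaling, which compares 1 gene between libraries, or as TPM, which also divides by transcript length and is the scale used between genes. The targeted gene followed the labels, with Zbtb38 at 162 and 152 CPM in ZBTB38 WT, at 117 and 106 CPM in ZBTB38 HET and between 18.6 and 50.3 CPM in the 6 knockouts. Its log2 fold change was -2.31 for KO over WT (SE 0.274, edgeR adjusted p = 0.0734) and -2.08 for KO over the 4 controls (SE 0.232, edgeR adjusted p = 0.0104). For KO over HET it was -1.82 and not called (SE 0.261, edgeR adjusted p = 0.128). On the TPM scale ZBTB38 KO replicate 2 was at 46.1, close to the 49.6 of both ZBTB38 HET libraries, and the other knockouts were between 17.5 and 23.7. The loxP sites flank only the last exon, which holds the coding sequence, so these sums also include exons that were not deleted. The sums of 8 germinal center B cell markers lay between 5133 and 7285 CPM, with no marker at 0. The sixth ZBTB38 KO library (replicate 6) scored 79.3 on principal component 1 (31.6% of the variance), where no other library was above 0.73, and had the lowest median correlation with them (0.954, against 0.971 to 0.983). It was also the highest library for Ccnd2 and the lowest for Ccnd3, Mnt, Mxi1 and Ccnd1, and the fold changes of these 5 genes between ZBTB38 KO and ZBTB38 WT or the controls are given with and without it.

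On the TPM scale, Ccnd3 had a median level of 534 over the 10 libraries and a range of 364 to 668, which overlapped with no other member. Max (median 82.0, range 46.2 to 101), Ccnd2 (median 71.4, range 34.4 to 114) and Myc (median 50.4, range 40.8 to 56.0) came next, and their ranges overlapped, so that their order cannot be set. Mxd4 followed (median 19.1 TPM, range 14.3 to 28.9), apart from its neighbours on both sides. Mnt (median 4.01 TPM), Mxi1 (2.17), Tfap4 (0.600) and Ccnd1 (0.194) overlapped each with the next, and Mycn had a median of 0. Of the MAX-binding antagonists, Mxd4 was therefore the most abundant in each library, and below Max in each library.

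**Figure D1:**
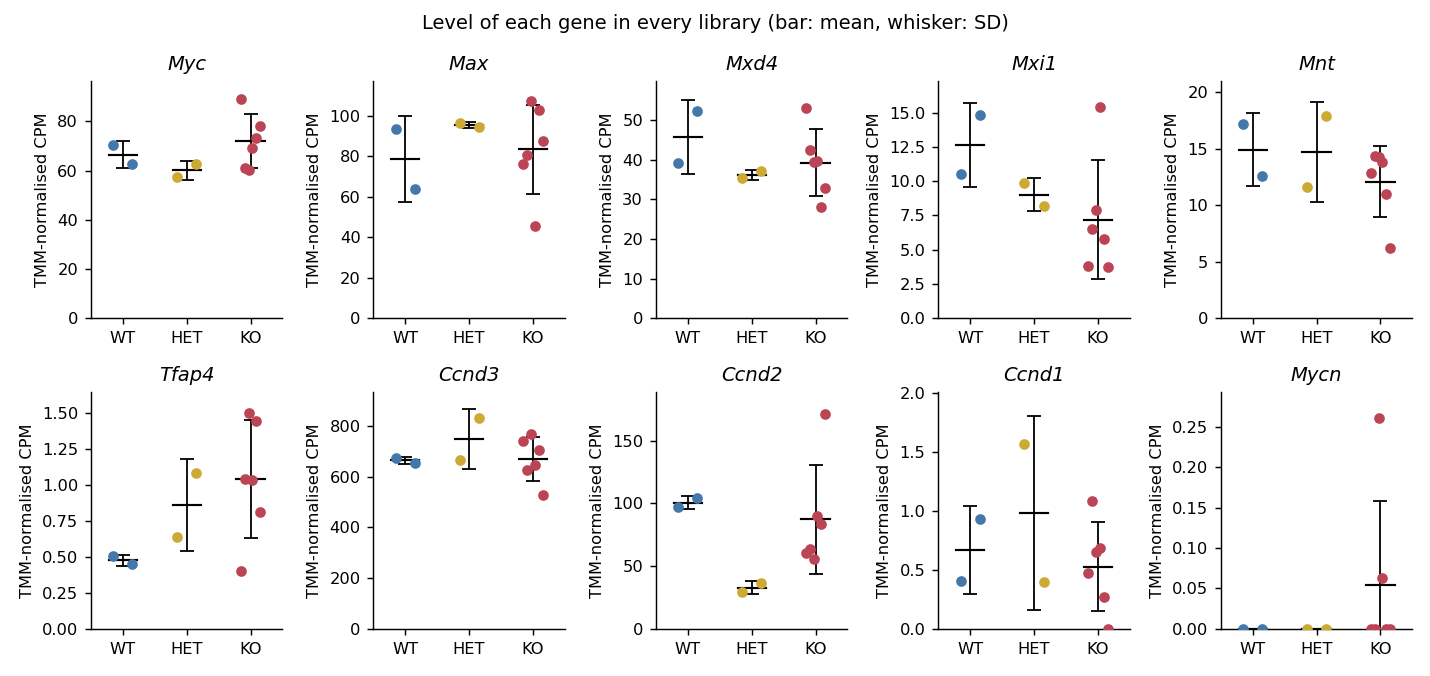
The level of each gene in TMM-normalised CPM (y axis, linear from 0) by genotype, with 1 point per library, a bar at the mean and a whisker for the SD (n = 2, 2 and 6). Ccnd2 in the 2 ZBTB38 HET libraries (29.2 and 36.4 CPM) lies below the other 8 libraries, and ZBTB38 KO replicate 6 reaches 171 CPM, while the groups of Myc and Ccnd3 overlap.

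Myc (ENSMUSG00000022346.15, chr15:61985391-61990374, plus strand, GRCm38) was at 70.3 and 62.7 CPM in ZBTB38 WT, at 57.5 and 62.8 CPM in ZBTB38 HET, and at 89.3, 61.3, 60.2, 69.0, 73.1 and 78.3 CPM in ZBTB38 KO replicates 1 to 6. In CPM, the lowest ZBTB38 KO library fell within the control range and the 3 highest libraries of all were ZBTB38 KO. This order depended on the scale. In TPM, ZBTB38 KO replicate 1 (49.7) lay below ZBTB38 WT replicate 1 (53.7), and ZBTB38 KO replicate 3 (40.8) was the lowest of all. The log2 fold change was 0.11 for KO over WT (SE 0.179, 95% interval -0.28 to 0.51, edgeR adjusted p = 0.999) and 0.18 for KO over the 4 controls (SE 0.130, interval -0.10 to 0.47, adjusted p = 0.758). On the fold scale the interval of the second comparison ran from 0.935 to 1.38. On data simulated like that comparison, 61% of genes changed 2-fold were recovered, which is an average over genes and not a value for Myc. Changes smaller than 2-fold were not simulated. In bulk RNA, fewer cells that make a transcript and less transcript per cell cannot be told apart.

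Mycn (ENSMUSG00000037169.15, chr12:12936093-12941914, minus strand), the relative that acts in early progenitors and neural tissue, had no reads in 8 of the 10 libraries. ZBTB38 KO replicate 3 had 8 estimated counts (0.261 CPM) and replicate 4 had 2. A count of 0 allows up to 3 counts, which corresponds to between 0.0731 and 0.113 CPM at these depths and covers counting error only. Mycn did not pass the filter in any comparison and has no test.

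Max (ENSMUSG00000059436.13, chr12:76937269-76962201, minus strand), the obligate partner of MYC and of its antagonists, was at 93.6 and 63.6 CPM in ZBTB38 WT, at 96.5 and 94.5 CPM in ZBTB38 HET, and between 45.8 and 107 CPM in ZBTB38 KO with a median of 84.2 CPM. The ZBTB38 KO libraries overlapped with both other groups, and both the lowest and the highest library were among the ZBTB38 KO mice. Both ZBTB38 HET libraries lay above both of ZBTB38 WT. Its log2 fold change was 0.09 for KO over WT (SE 0.285, edgeR adjusted p = 0.999) and -0.06 for KO over the controls (SE 0.208, adjusted p = 0.965).

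Max RNA is spliced into a long and a short form of the protein, which differ by 9 residues next to the DNA-binding region. The coding bases that make the difference are a 27-base exon (exon 2 of ENSMUST00000110395.10, chr12:76961263-76961289, minus strand, GRCm38), shown because it is the only thing that separates the coding sequences of the 2 main transcripts. They fill coding bases 37 to 63 of the long form.
Max exon 2: gaagagcaaccgaggtttcaatctgcg

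The transcript without this exon (ENSMUST00000082136.6, 456 coding bases) carried between 39.8% and 69.9% of the Max TPM, and the one with it (ENSMUST00000110395.10, 483 coding bases) between 17.3% and 35.5%. The shorter form was the more abundant in every library. In ZBTB38 WT the form with the exon carried 26.4% and 33.5%, in ZBTB38 HET 27.6% and 31.1%, and in ZBTB38 KO from 17.3% to 35.5%. The 3 lowest values (17.3%, 17.7% and 19.4%) were in ZBTB38 KO replicates 6, 4 and 5, while ZBTB38 KO replicate 1 had the highest, so the groups overlapped.

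The E-box through which these proteins act is also found near the start of some of their own genes. Promoter sequences of 300 bases (RefSeq, GRCm38.p6), from 250 before to 50 after the gene start, were available for 6 of the 10 genes, and CACGTG, which reads the same on both strands, was found in 3 of them. The first base of the match lay 3 bases before the RefSeq start of Max, so that the match crossed that start, 123 before that of Mnt and 219 before that of Mxd4. These starts differ from the ends of the Gencode gene positions given here. The matches are shown in capitals with 22 bases on either side because these are the members for which the network's own binding letters could be placed.
Max, chr12:76962224-76962273, minus strand: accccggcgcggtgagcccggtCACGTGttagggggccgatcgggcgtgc
Mnt, chr11:74830779-74830828, plus strand: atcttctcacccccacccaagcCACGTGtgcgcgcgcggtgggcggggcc
Mxd4, chr5:34187902-34187951, minus strand: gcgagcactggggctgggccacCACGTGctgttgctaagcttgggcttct

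No CACGTG was found in the promoter windows of Mycn, Ccnd3 (2 windows) and Mxi1 (3 windows). Of all 32851 promoter windows of this length, 7.15% held the motif, as did those of 8.09% of genes. The match is one of letters only. The RNA levels of the 3 genes with a match showed no call in any comparison, as did those of the genes without.

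Mxd4 (ENSMUSG00000037235.13, chr5:34173883-34187720, minus strand), an antagonist linked to the exit from division, was at 39.0 and 52.4 CPM in ZBTB38 WT, at 35.3 and 37.1 CPM in ZBTB38 HET, and between 28.2 and 53.0 CPM in ZBTB38 KO with a median of 39.6 CPM. The ZBTB38 KO range enclosed all 4 controls. The log2 fold change was -0.22 for KO over WT (SE 0.236, edgeR adjusted p = 0.999) and -0.06 for KO over the controls (SE 0.183, adjusted p = 0.959).

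Mxi1 (ENSMUSG00000025025.13, chr19:53310518-53375810, plus strand), which antagonises MYC by pairing with MAX, was at 10.5 and 14.8 CPM in ZBTB38 WT and at 9.85 and 8.18 CPM in ZBTB38 HET. In ZBTB38 KO replicates 1 to 6 it was at 3.83, 6.53, 7.89, 15.4, 5.79 and 3.73 CPM. Apart from replicate 4, which was the highest library of all, every ZBTB38 KO library lay below all 4 controls. The log2 fold change was -0.81 for KO over WT (SE 0.507, interval -1.94 to 0.31, edgeR adjusted p = 0.999) and -0.59 for KO over the controls (SE 0.390, interval -1.43 to 0.26, adjusted p = 0.754). Without replicate 4 it was -1.19 for KO over WT (adjusted p = 0.987) and -0.96 for KO over the controls (adjusted p = 0.538), and without replicate 6 it was -0.68 and -0.45, and none of these was called.

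Mnt (ENSMUSG00000000282.12, chr11:74830920-74845725, plus strand), the antagonist made in resting and dividing cells alike, was at 17.2 and 12.6 CPM in ZBTB38 WT, at 11.6 and 17.8 CPM in ZBTB38 HET, and between 6.19 and 14.4 CPM in ZBTB38 KO with a median of 13.3 CPM. The groups overlapped, and the lowest value was that of ZBTB38 KO replicate 6. The log2 fold change was -0.30 for KO over WT (SE 0.337) and -0.29 for KO over the controls (SE 0.257), with edgeR adjusted p-values of 0.999 and 0.800. Without that library they were -0.17 and -0.16.

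Tfap4 (ENSMUSG00000005718.8, chr16:4544661-4559854, minus strand), a direct MYC target, was at 0.504 and 0.449 CPM in ZBTB38 WT, at 0.637 and 1.09 CPM in ZBTB38 HET, and at 0.401, 1.05, 1.5, 1.03, 1.45 and 0.811 CPM in ZBTB38 KO replicates 1 to 6. These levels rested on between 11 and 46 estimated counts per library. Of the 6 ZBTB38 KO libraries, 5 lay above both ZBTB38 WT libraries and replicate 1 lay below them. The log2 fold change of 1.12 for KO over WT had an interval from -0.68 to 2.93 (SE 0.815, edgeR adjusted p = 0.999), and that for KO over the controls was 0.64 (SE 0.566, adjusted p = 0.800). The interval spans both directions, and the parts of depth, spread between mice and group size in its width were not tested.

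Ccnd3 (ENSMUSG00000034165.16, chr17:47505051-47599691, plus strand) was at 673 and 654 CPM in ZBTB38 WT, at 664 and 831 CPM in ZBTB38 HET, and between 528 and 768 CPM in ZBTB38 KO with a median of 675 CPM. The ZBTB38 KO range enclosed 3 of the 4 controls, and ZBTB38 HET replicate 2 was the highest. The log2 fold change was 0.01 for KO over WT (SE 0.152, interval -0.32 to 0.35, edgeR adjusted p = 0.999) and -0.07 for KO over the controls (SE 0.119, interval -0.33 to 0.18, adjusted p = 0.90). The latter interval corresponds to between 0.794 and 1.14 times the control level. Without ZBTB38 KO replicate 6, the lowest library, the fold changes were 0.07 and -0.02.

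Ccnd1 (ENSMUSG00000070348.5, chr7:144929931-144939925, minus strand), the D-type cyclin of epithelial and many other tissues that normal B cells hardly make, was at most 1.56 CPM in any library. It was at 0.408 and 0.933 CPM in ZBTB38 WT, at 1.56 and 0.398 CPM in ZBTB38 HET and between 0 and 1.08 CPM in ZBTB38 KO. The libraries did not separate by genotype, and the log2 fold change of -0.64 for KO over the controls had a standard error of 0.886 (edgeR adjusted p = 0.882). Without ZBTB38 KO replicate 6, which had no reads of Ccnd1, it was -0.38, and the value for KO over WT went from -0.34 to -0.08.

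Ccnd2 (ENSMUSG00000000184.12, chr6:127125162-127152193, minus strand) is the D-type cyclin that resting B cells induce when their antigen receptor is engaged. It was at 96.8 and 104 CPM in ZBTB38 WT, at 29.2 and 36.4 CPM in ZBTB38 HET, and at 60.4, 63.3, 55.3, 89.8, 83.4 and 171 CPM in ZBTB38 KO replicates 1 to 6. The 2 ZBTB38 HET libraries were the lowest of the 10, the 2 ZBTB38 WT libraries lay above 5 of the 6 ZBTB38 KO libraries, and ZBTB38 KO replicate 6 was the highest. For KO over HET the log2 fold change was 1.41 (SE 0.397, interval 0.54 to 2.28), a 2.66-fold difference with an edgeR unadjusted p of 0.00414 and an adjusted p of 0.333, or 1.11 without ZBTB38 KO replicate 6 (adjusted p = 0.189). For HET over WT it was -1.62 (SE 0.456, interval -2.61 to -0.62), which makes ZBTB38 WT 3.07-fold higher, with an edgeR unadjusted p of 0.00422 and an adjusted p of 0.709. For KO over WT it was -0.20 (SE 0.372, edgeR adjusted p = 0.999), or -0.51 without ZBTB38 KO replicate 6, and for KO over the controls it was 0.39 (SE 0.402, adjusted p = 0.831), or 0.08 without that library. The order with both ZBTB38 HET libraries below all 8 others was found for 653 of the 14351 genes tested. The call of Ccnd2 depended on the test: DESeq2 called it in KO over HET (adjusted p = 0.0157), where it called 2.91% of all genes, and in HET over WT (adjusted p = 0.0582), where it called 0.956%. In HET over WT edgeR also called it with the replicate number as a block (0.453% of genes called), in a fit on the libraries of these 2 groups alone (3.96%) and without ZBTB38 KO replicate 6 (0.112%).

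The part of Ccnd2 among the D-type cyclins varied with it. Ccnd2 made up 15.5% and 17.0% of their summed TPM in ZBTB38 WT, 6.09% and 5.23% in ZBTB38 HET, and 8.76% to 23.9% in ZBTB38 KO. Ccnd3 made up nearly all of the rest, between 76.1% and 94.8% in the 10 libraries, and Ccnd1 at most 0.106%. With only the transcript of Ccnd2 that holds the whole coding sequence, its share was 2.84% and 3.15% in ZBTB38 WT, 0.787% and 0.911% in ZBTB38 HET and 1.45% to 6.72% in ZBTB38 KO, so the size of the share rests on how reads were split among transcripts. These shares were computed after the levels had been seen.

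**Figure D2:**
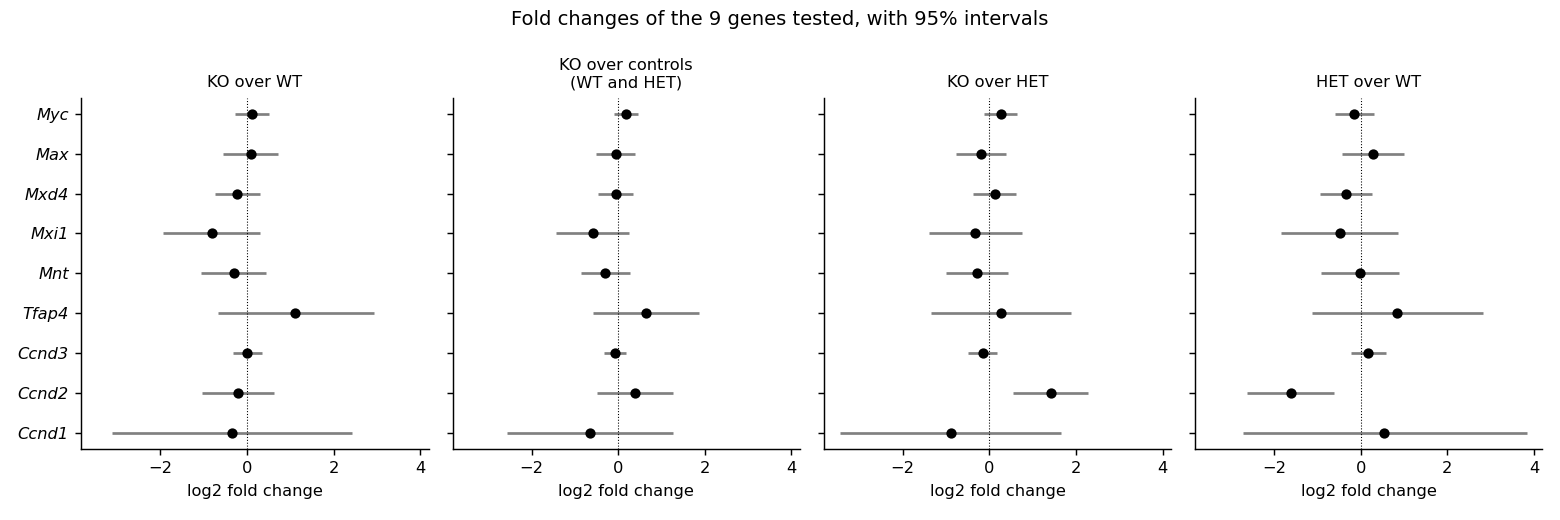
Log2 fold change (x axis, points) with its 95% interval (lines) for the 9 genes tested, in edgeR's fits of 4 comparisons. Every interval crosses 0 except those of Ccnd2 for KO over HET (0.54 to 2.28) and HET over WT (-2.61 to -0.62), whose adjusted p-values are 0.333 and 0.709.

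Over all genes, an adjusted p under 0.1 was reached by 0.00704% of those tested for KO over WT, 0.00749% for KO over the controls, 0.00697% for KO over HET and 0.00697% for HET over WT, which is 1 gene in each comparison. In KO over WT and in KO over the controls that gene was Zbtb38 itself. Against this background the 9 members tested gave 0 calls in each comparison, with smallest edgeR adjusted p-values of 0.999, 0.754, 0.333 and 0.709. At an unadjusted edgeR p under 0.05 there were 0, 0, 1 and 1 members in these 4 comparisons, both times Ccnd2, beside 2.18%, 6.31%, 10.2% and 6.42% of all genes. The libraries of the 2 groups did not overlap for 0 members in KO over WT and in KO over the controls, where 6.59% and 1.52% of all genes did not overlap, for 1 in KO over HET (13.9%) and for 5 in HET over WT (48%). For KO over WT, 4 members had a positive and 5 a negative fold change with a median of -0.20, where the median of all genes tested was 0.01. For KO over the controls these were 3 and 6 with a median of -0.06, beside 0.02 for all genes. The comparisons share libraries and are not independent of each other.

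Markers of naive B cells moved with Ccnd2. The summed level of 6 genes of naive B cells was 769 and 856 CPM in ZBTB38 WT, 377 and 425 CPM in ZBTB38 HET, and 495 to 1151 CPM in ZBTB38 KO, with the highest value in replicate 6. Ighd, Ccr7, Klf2 and Ccr6 each had both ZBTB38 HET libraries below all 8 others, whereas Fcer2a did not. Klf2, a regulator of lymphocyte trafficking, had a mean of 128 ± 12.1 CPM (SD, n = 2) in ZBTB38 WT, 35.7 ± 4.32 (n = 2) in ZBTB38 HET and 113 ± 59.9 (n = 6) in ZBTB38 KO (log2 fold change 1.67 for KO over HET, SE 0.435, edgeR adjusted p = 0.315). Ighd, which encodes the constant region of IgD, the protein against which the cells were sorted, was at 162 ± 38.3, 49.2 ± 1.70 and 118 ± 65.0 CPM in the same order. None of the 6 genes was called, and at an unadjusted edgeR p under 0.05 there were 5 for KO over HET (10.2% of all genes) and 4 for HET over WT (6.42%). Because the markers were chosen with earlier results of these data known, these counts are not an independent test.

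The summed markers of T cells were also lowest in ZBTB38 HET. Those of myeloid cells were lower there than in all but 1 of the other libraries. Gene by gene, only 1 of the 9 T cell markers had both ZBTB38 HET libraries below all 8 others. The 9 T cell markers summed to 106 and 108 CPM in ZBTB38 WT, 20.7 and 31.3 CPM in ZBTB38 HET and 32.4 to 89.0 CPM in ZBTB38 KO. The 8 myeloid markers summed to 486 and 614 CPM in ZBTB38 WT, 93.8 and 100.1 CPM in ZBTB38 HET and 82.4 to 801 CPM in ZBTB38 KO. For HET over WT, 7 of the 9 and 7 of the 8 had an unadjusted edgeR p under 0.05, each of them lower in ZBTB38 HET, beside 6.42% of all genes, and none was called. For KO over WT, 8 of the 9 T cell markers had a negative fold change (median -1.01), with 3 at an unadjusted edgeR p under 0.05 beside 2.18% of all genes. The T cell sums of all 6 ZBTB38 KO libraries lay below both of ZBTB38 WT. The markers were chosen with earlier results of these data known, so these counts are not an independent test. In ZBTB38 KO replicate 6, where Ccnd2 was highest, the T cell sum (89.0 CPM) was the highest of the knockouts. The myeloid sum of that library (279.9 CPM) was not, and both sums were below those of both ZBTB38 WT libraries. No marker in these 3 lists was at 0 in every library. The 6 dark zone markers had the opposite order, with 1618 and 1801 CPM in ZBTB38 WT and 2172 and 2216 CPM in ZBTB38 HET, above the 1575 to 2039 CPM in ZBTB38 KO. The part of these cells in the level of Ccnd2 was not tested.

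Across the 10 libraries, Ccnd2 and the naive B cell sum had a Pearson r of 0.913 (permutation p = 0.00054) and a Spearman rho of 0.879 (permutation p = 0.00172) on the log2(CPM + 1) scale. Without ZBTB38 HET replicate 1 and ZBTB38 KO replicate 6, the 2 libraries farthest from the median, r was 0.783 (permutation p = 0.0249). Within the 6 ZBTB38 KO libraries r was 0.794 with an exact permutation p of 0.103, and without ZBTB38 KO replicate 6 it was 0.864 over 9 libraries (exact permutation p = 0.00439). This relation was looked for after the values of both had been seen, so its p-values cannot serve as a test of it. Except within ZBTB38 KO, libraries were also permuted across genotypes.

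**Figure D3:**
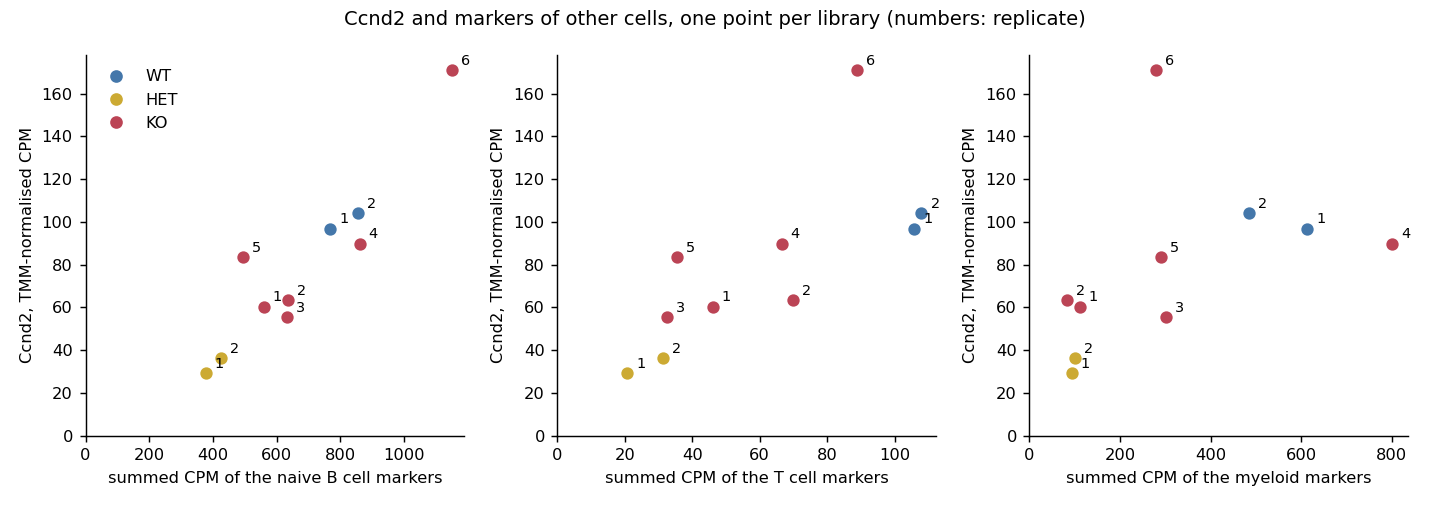
Ccnd2 in TMM-normalised CPM (y axis) against the summed CPM of the naive B cell, T cell and myeloid markers (x axes), with 1 point per library coloured by genotype and numbered by replicate. The 2 ZBTB38 HET libraries lie lowest in Ccnd2 in each panel, and ZBTB38 KO replicate 6 lies highest in Ccnd2 and in the naive B cell sum (1151 CPM).

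Of the 6 pairs of members compared over the 10 libraries, none passed an adjusted permutation p of 0.1. On the log2(CPM + 1) scale Ccnd2 and Ccnd3 had the strongest relation, with a Pearson r of -0.682 (permutation p = 0.0287, adjusted 0.172) and a Spearman rho of -0.624 (permutation p = 0.0609, adjusted 0.366). It was -0.794 without ZBTB38 HET replicate 1 and ZBTB38 KO replicate 6, and -0.869 within the ZBTB38 KO libraries (exact permutation p = 0.0472, adjusted 0.192). Myc and Ccnd2 had an r of 0.498 (permutation p = 0.142, adjusted 0.427) and a rho of 0.503 (permutation p = 0.147, adjusted 0.442). This order depended on the scale: on log2(TPM + 1), Ccnd2 and Ccnd3 had an r of -0.419 (permutation p = 0.234, adjusted 0.468) and Myc and Ccnd2 had the larger r of 0.665 (permutation p = 0.0443, adjusted 0.256). The pairs of Myc with Tfap4, Max, Ccnd3 and Mxd4 had r values of -0.311, -0.148, -0.167 and 0.10 with adjusted permutation p-values between 0.757 and 0.784. Myc and Tfap4 had an r of -0.787 within the ZBTB38 KO libraries (exact permutation p = 0.0639, adjusted 0.192). It was -0.107 on log2(TPM + 1) and 0.129 without ZBTB38 KO replicates 1 and 6. Myc and Max had an r of -0.534 on log2(TPM + 1) (permutation p = 0.0854, adjusted 0.256). Among 8585 genes with a mean of at least 10 CPM, those whose pattern over the 10 libraries was most like that of Myc were Nob1 (r = 0.980), Drap1 (0.962) and Bcap29 (0.934). For Ccnd3 they were Spsb3 (0.930), Snw1 (0.913) and Hspa13 (0.904). With so many genes and 10 libraries that share depth and genotype, such values are a description only.

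The split of reads among transcripts of a gene is an estimate, because transcripts share exons. Ccnd2 shows how much it can matter for a level. A 627-base transcript with an incomplete coding sequence (ENSMUST00000201902.3) carried between 72.8% and 81.5% of the Ccnd2 TPM, but only 17.4% to 25.8% of its estimated counts. The 6330-base transcript with the whole coding sequence (ENSMUST00000000188.11) carried 65.8% to 80.7% of the counts and 12.2% to 23.0% of the TPM. Taken alone, the long transcript was at 15.8 and 17.5 TPM in ZBTB38 WT, 4.21 and 6.14 TPM in ZBTB38 HET and 7.73 to 26.2 TPM in ZBTB38 KO. The order of the groups was the one seen for the whole gene, with the 2 ZBTB38 HET libraries lowest, but the place of Ccnd2 beside Max and Myc on the TPM scale rested on the short transcript.

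The other genes differed in how steady their transcripts were. Ccnd3 was carried by ENSMUST00000182209.7 at 83.5% to 94.8% in every library. For Myc, ENSMUST00000161976.7 carried 40.3% to 56.8% of the TPM, and for Mxd4 the longer ENSMUST00000042701.12 carried 50.8% to 77.9%. The 3 transcripts of Mxi1, which encode 295, 228 and 192 residues, were the least steady: ENSMUST00000003870.13, the longest, carried from 5.21% in ZBTB38 HET replicate 2 to 100% in ZBTB38 KO replicate 6, and ENSMUST00000111737.1, the shortest, reached 58.1% in ZBTB38 KO replicate 2 and was 0% in 6 libraries. Mxi1 had between 105 and 492 estimated counts per library. Of the 14 member transcripts with a mean share between 10% and 90%, none had shares that did not overlap between ZBTB38 KO and WT or between ZBTB38 KO and the controls, where 5.03% and 0.839% of all such transcripts did not overlap.

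**Figure D4:**
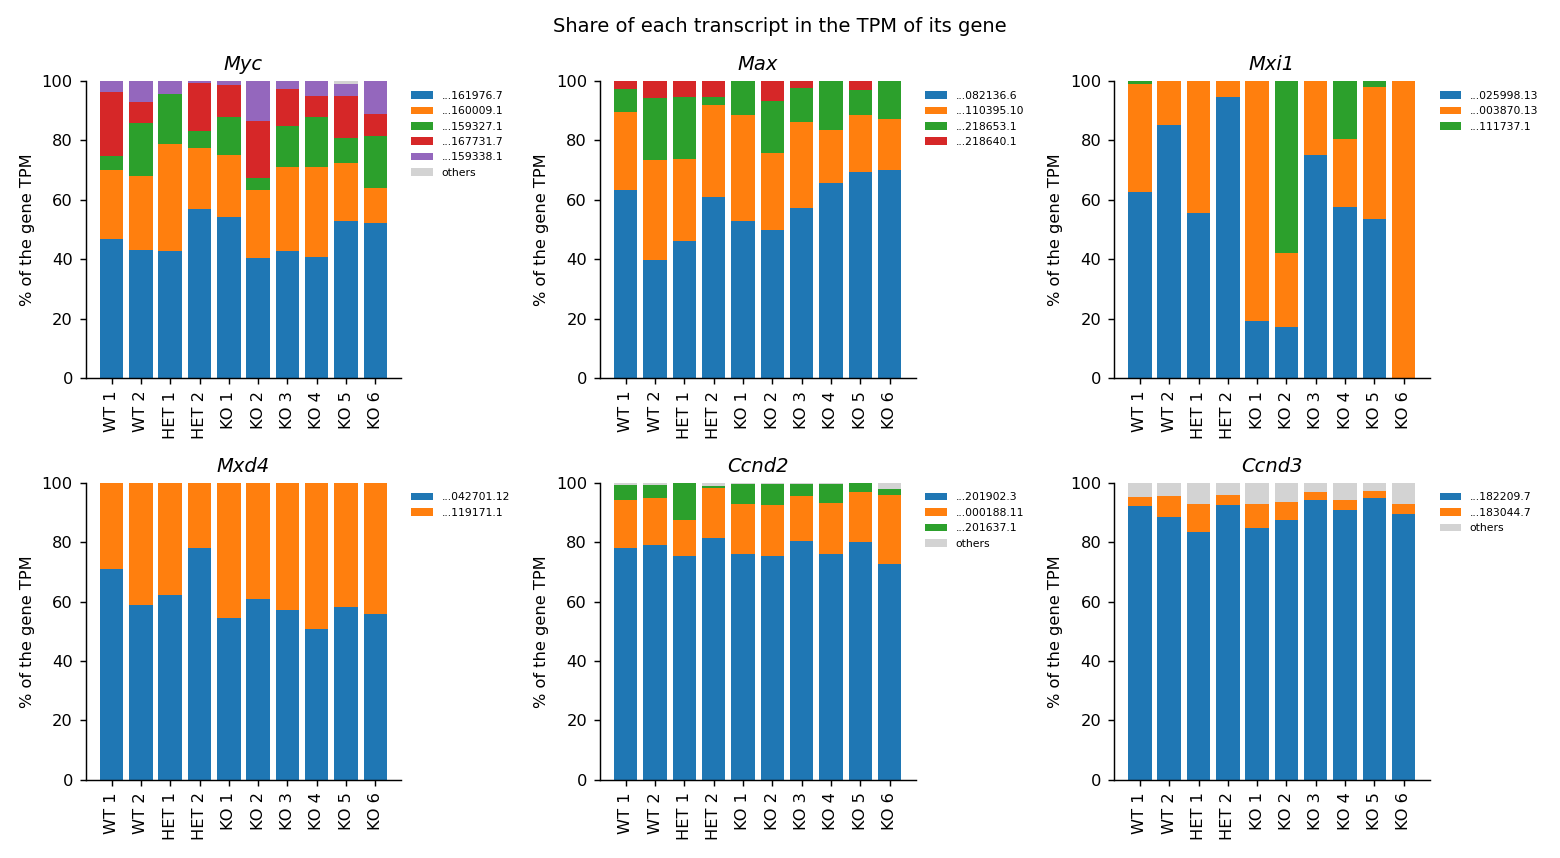
Share of each transcript in the TPM of its gene (y axis, %) for 6 genes, with 1 stacked bar per library and the legend giving the last digits of the Ensembl transcript name. Ccnd3 is carried by 1 transcript in every library (83.5% to 94.8%), while the shares of the Mxi1 transcripts run from 0% to 100%.

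The genes around the network were read from 4 lists. Of 12 MYC partners and cofactors, 6 had a positive and 6 a negative fold change for KO over WT, and 7 and 5 for KO over the controls, with medians of 0.01 and 0.05 on the log2 scale. Ruvbl2, a helicase in chromatin complexes that MYC recruits, was at 127 ± 7.46 CPM (SD, n = 4) in the controls and 149 ± 23.8 (n = 6) in ZBTB38 KO (log2 fold change 0.24, SE 0.126, edgeR adjusted p = 0.743). Trrap, the scaffold of MYC-bound acetyltransferases, was at 49.4 ± 3.15 and 41.0 ± 7.20 CPM, a log2 fold change of -0.27 (SE 0.144, edgeR adjusted p = 0.743).

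Of 8 genes for the turnover of MYC protein, 3 had a positive and 5 a negative fold change in both comparisons, with medians of -0.11 and -0.17. Usp28, a deubiquitinase that stabilises MYC, had a mean of 55.2 ± 9.01 CPM (SD, n = 2) in ZBTB38 WT, 81.3 ± 3.57 (n = 2) in ZBTB38 HET and 50.7 ± 4.18 (n = 6) in ZBTB38 KO. Usp28 had a log2 fold change of -0.43 for KO over the controls (SE 0.151, edgeR unadjusted p = 0.0150, adjusted p = 0.743) and one of -0.68 for KO over HET (SE 0.145, unadjusted p = 0.000571, adjusted p = 0.256), with the ZBTB38 HET mean the highest of the 3. Skp2, a ubiquitin ligase subunit, was at 27.9 ± 6.81 CPM in ZBTB38 WT and 38.3 ± 6.21 in ZBTB38 KO (log2 fold change 0.45, SE 0.225, edgeR adjusted p = 0.999). Aurka, a mitotic kinase that protects MYC proteins from degradation, had a log2 fold change of 0.41 for KO over WT (SE 0.223, edgeR adjusted p = 0.999).

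Of 20 MYC target genes for ribosome production, translation and metabolism, 13 had a positive fold change for KO over WT and 15 for KO over the controls, with medians of 0.08 and 0.11 beside 0.01 and 0.02 for all genes tested. Nme1, a nucleoside diphosphate kinase, was at 262 ± 20.1 CPM (SD, n = 4) in the controls and 329 ± 66.4 (n = 6) in ZBTB38 KO (log2 fold change 0.33, SE 0.145, edgeR unadjusted p = 0.0411, adjusted p = 0.743). It was the only gene of the list under an unadjusted p of 0.05 in that comparison. Apex1, a DNA repair nuclease, was at 90.5 ± 13.5 and 111 ± 17.0 CPM (log2 fold change 0.30, SE 0.140, edgeR adjusted p = 0.743), and Eif4e, the cap-binding translation factor, was at 192 ± 14.4 CPM in ZBTB38 WT and 231 ± 22.6 in ZBTB38 KO (log2 fold change 0.26, SE 0.140, edgeR adjusted p = 0.999).

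Of 25 genes for the kinases that D-type cyclins activate, their inhibitors, the retinoblastoma proteins, E2F factors and E-type cyclins, 17 had a positive and 8 a negative fold change for KO over WT, and 11 and 14 for KO over the controls. Ccne2 and Ccne1 encode the E-type cyclins that act after the D-type cyclins. Ccne2 had a mean of 65.6 ± 14.2 CPM (SD, n = 2) in ZBTB38 WT and 88.1 ± 9.48 (n = 6) in ZBTB38 KO (log2 fold change 0.42, SE 0.173, edgeR unadjusted p = 0.0330, adjusted p = 0.999). Ccne1 was at 57.7 ± 2.95 CPM in the controls (n = 4) and 71.3 ± 7.44 in ZBTB38 KO (log2 fold change 0.31, SE 0.110, edgeR unadjusted p = 0.0161, adjusted p = 0.743). Rbl2, which encodes the retinoblastoma relative p130 of resting cells, was at 86.2 ± 11.4 CPM in the controls and 61.0 ± 11.5 in ZBTB38 KO (log2 fold change -0.50, SE 0.154, edgeR unadjusted p = 0.00687, adjusted p = 0.743). In all 4 lists, 0 genes were called by edgeR in any of the 4 comparisons.

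**Figure D5:**
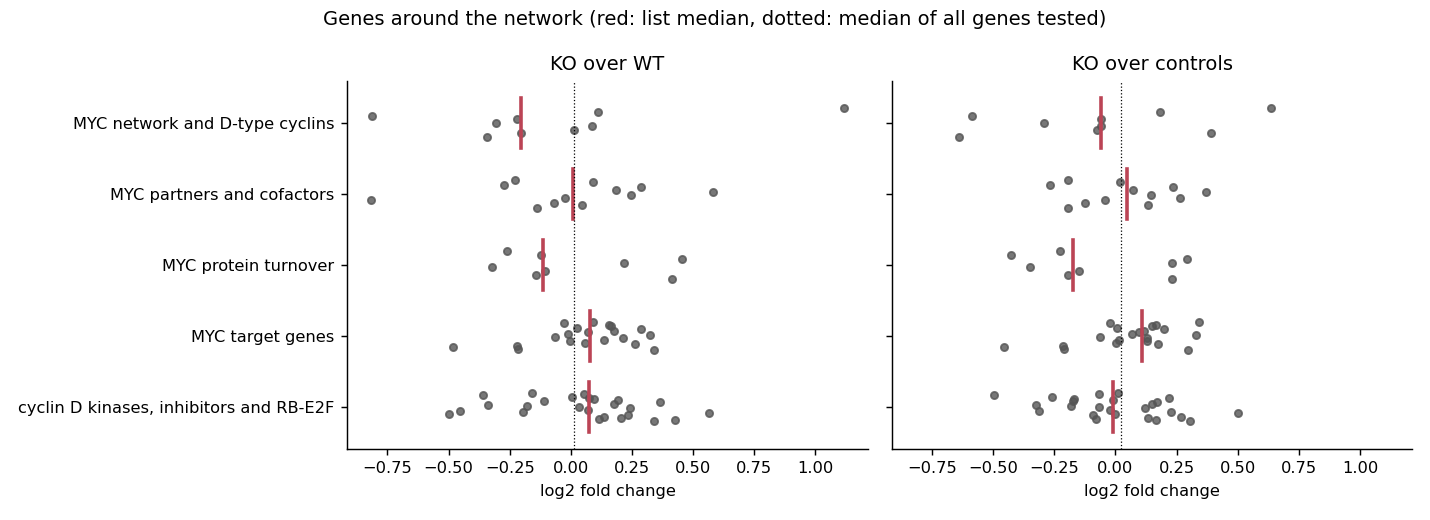
Log2 fold changes (x axis) for KO over WT and KO over the controls, with 1 point per gene for the 9 members tested and the genes of 4 lists, a red line at the list median and a dotted line at the median of all genes tested. The list medians lie between -0.20 and 0.11, and no gene shown was called.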

How the data were processed

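The authors prepared the 10 libraries with SMART-Seq v4 kits (the labels name Nextera), sequenced paired ends and ran Salmon (0.9.1 in the submitters' processing notes) with the Gencode vM17 annotation, and they deposited an estimated count per transcript, which is not normalized and need not be whole (46.8% of values were not). The authors also deposited TPM, which divides by effective transcript length. Salmon's options were not given in the sources used here. Reads shared by transcripts or near-identical genes were split by its model, and PCR duplicates were not marked, so intervals cover counting error and the spread between mice only.

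Counts and TPM of the 64019 transcripts were summed per symbol (14 symbols had more than 1 gene ID), and counts were rounded. The test was edgeR 4.0.16 (quasi-likelihood, TMM with factors of 0.923 to 1.07, filterByExpr, Benjamini-Hochberg over all genes tested, threshold 0.1) in R 4.3.3. KO over WT (14200 genes) and KO over the 4 controls (13344 genes) were fitted on their own libraries, and KO over HET and HET over WT (14351 genes) on all 10 with a term per genotype. Fold changes are the first group over the second. On data simulated like KO over WT (14200 genes), the fit recovered 33% of genes changed 2-fold and 68% changed 4-fold; like KO over the controls (13344 genes), 61% and 85.9%. Like KO over HET (14351 genes) it recovered 52% and 76%, and like HET over WT (14351 genes) 17% and 60%. In these 4 simulations 4 of 105, 16 of 162, 23 of 151 and 5 of 82 calls were false. The changed genes were drawn at random from those with a mean above 1 CPM, so each share is an average over genes. The mean levels of Tfap4 and Ccnd1 lay below that limit. Correlations were permuted 100000 times, or exactly for fewer than 10 libraries. Alternatives were DESeq2 1.42.0, its size factors, other filters, length-scaled counts, limma 3.58.1 on log2(TPM + 1) and log2(TPM + 0.1), the replicate number as a block, a threshold of 0.05, other libraries in the fit and each library left out. Tables and permutations used Python 3.11.15. Gene positions are from Gencode vM21 on GRCm38, a later release than the one used for quantification.

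The members, lists and markers were chosen with earlier results of these data known. Named genes are the members, Zbtb38, the 2 genes of each list with the smallest p in KO over WT and in KO over the controls, and the 3 genes most like Myc and Ccnd3. The naive B cell markers, the transcripts of the members and the genes most like Ccnd2 were named after their values were seen. Some genes of the lists are not reported here by name, but they stayed in the lists' counts and sums.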

Additional observations from a re-analysis of the deposited data

Results flagged for a closer look

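In 5 of the 19 sets of libraries examined for a single value far from the others, 1 library stood apart by Dixon's criterion, where chance alone gives 0.9. These were the levels of the members in the 6 ZBTB38 KO libraries and in the 4 controls. Ccnd2 was at 171 CPM in ZBTB38 KO replicate 6, against 89.8 CPM in the nearest ZBTB38 KO library. Mxi1 was at 15.4 CPM in ZBTB38 KO replicate 4, against 7.89 CPM in the nearest. Mycn was at 0.261 CPM in ZBTB38 KO replicate 3, which is 8 estimated counts. Among the controls, Max was at 63.6 CPM in ZBTB38 WT replicate 2, against 93.6 CPM in the nearest, and Ccnd3 was at 831 CPM in ZBTB38 HET replicate 2, against 673 CPM.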

How the results depend on the processing

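Of 689 member fold changes under alternatives, 653 kept direction and side of the threshold, 5 came to pass it and 31 turned, none of them called. Both the 689 and the 653 include the main fits read again at a stricter threshold. Those entries repeat the main fold changes and could neither turn nor come to pass, so they are no test of stability. Of the 31 that turned, 18 did so with 1 library left out. Their ranges over the libraries left out were, for KO over WT, -0.1665 to 0.3913 (Max, turned without WT replicate 2), -0.4153 to 0.0067 (Mxd4, the same), -0.8199 to 0.3638 (Ccnd1, the same) and -0.0309 to 0.0713 (Ccnd3, turned without WT replicate 2 or KO replicates 1, 3 or 5). For KO over the controls they were -0.1833 to 0.0644 (Max, KO replicate 4), -0.1641 to 0.0822 (Mxd4, WT replicate 2 or KO replicate 5) and -0.109 to 0.0115 (Ccnd3, HET replicate 2). For KO over HET they were -0.5668 to 0.0552 (Mnt, HET replicate 2), -0.0642 to 0.7015 (Tfap4, HET replicate 1), -1.5622 to 0.3981 (Ccnd1, HET replicate 1) and -0.314 to 0.0093 (Ccnd3, HET replicate 2). For HET over WT they were -0.3603 to 0.2618 (Mnt, WT or HET replicate 1) and -0.7408 to 1.2567 (Ccnd1, HET replicate 1). Limma on log2(TPM + 1) or log2(TPM + 0.1) turned KO over WT for Myc (-0.0402, -0.0410), Max (-0.127, -0.129) and Ccnd3 (-0.1386, -0.1389), at least 10 counts in every library turned Ccnd3 (-4.951e-05), and length-scaled counts turned Mxd4 for KO over the controls (0.0824).

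The replicate numbers were treated as names only, because the labels give no shared litter or batch and only 2 numbers are shared. Deviations of same-numbered libraries from their group means had correlations between -0.008 and 0.127. With 2 libraries each in ZBTB38 WT and ZBTB38 HET, the deviations within a group mirror each other, so these values cannot show whether mice were paired. The replicate block turned Mxd4 (0.069) and Ccnd1 (0.2125) in KO over WT, Mxd4 (0.2298) and Ccnd2 (-0.1034) in KO over the controls and Tfap4 (-0.3094) in KO over HET, and with the block 3, 0, 4 and 65 genes were called in KO over WT, KO over the controls, KO over HET and HET over WT.

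In those 4 comparisons, with 1 gene each in the report, DESeq2 called 10, 25, 505 and 166 genes. Length-scaled counts called 0 and 0 in the first and second. Limma on log2(TPM + 1) called 0 and 0 there, and on log2(TPM + 0.1) 3, 0, 6 and 5. A threshold of 0.05 called 0 in KO over WT, and a fit on all 10 libraries 2. KO over HET gave 2 genes with no filter, 0 with at least 10 counts and 0 with only its own libraries. HET over WT gave 0 with at least 10 counts and 523 with only its own libraries. Leaving out 1 library gave 0 to 2, 1 to 2, 0 to 5 and 0 to 16. At an unadjusted p under 0.05, the counts of 0 stood beside 190 to 1426 genes. The members called stayed at 0 except for Ccnd2, the 1 member called by DESeq2 in KO over HET and in HET over WT, and in HET over WT also with the replicate block (adjusted p = 0.0281, 0.453% of genes called), with only its own libraries (0.0102, 3.96%) and without KO replicate 6 (0.0807, 0.112%). Without the 2 libraries farthest from the median, the correlation of Myc with Tfap4 turned to 0.129 and with Mxd4 to -0.391. That of Ccnd2 with the naive B cell markers was 0.794 within ZBTB38 KO, no longer under a p of 0.1, where 6 libraries remain. No cause of these differences was tested. With 2 mice each in ZBTB38 WT and ZBTB38 HET, and 11 to 46 counts for Tfap4 and 0 to 49.2 for Ccnd1, a missing call does not show that a difference is absent.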

Other observations

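The genes whose pattern over the 10 libraries was most like that of Ccnd2 were S100a10 (r = 0.974), Ighm (0.970), Pld4 (0.970), Selplg (0.963) and Plaur (0.963), out of 8585 genes compared. They were looked up after the values of Ccnd2 had been seen. Ighm, which encodes the constant region of IgM, ranged from 2769 to 11770 CPM. S100a10, a calcium-binding protein gene, ranged from 13.2 to 91.8 CPM, and Plaur, the urokinase receptor gene, from a low of 1.53 CPM to 34.97 CPM. In all, 73 of these genes had an r above 0.9 with Ccnd2, and Klf2 (0.928) and Ccr7 (0.924) of the naive B cell markers were among them at ranks 34 and 43. Ighd and Ccr6 had r values of 0.893 and 0.857, and Fcer2a, which encodes the IgE receptor CD23, had 0.349.

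The other cell markers gave these values. The 6 light zone markers summed to 1031 and 1129 CPM in ZBTB38 WT, 1013 and 1111 CPM in ZBTB38 HET and 887 to 1271 CPM in ZBTB38 KO. The 6 plasma cell markers summed to 1378 and 1583, 1179 and 1270, and 1164 to 1746 CPM in the same order, and the 6 erythroid markers to 44.8 and 57.1, 35.5 and 38.8, and 56.1 to 96.5 CPM.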
